A study of Homo sapiens with 15 samples.

Results

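NOL11, UTP4, UTP15, WDR43, WDR75, HEATR1, UTP18, WDR3, WDR36 and UTP20 are 10 genes for protein factors of the small-subunit processome. Their introns were taken from 4 deposited tables of intron retention, by the gene name given for each intron. This gave 221 introns of the 111143 in any table, with 193, 201, 203 and 201 in the tables of KO-1 to KO-4. Of these, 181 were listed for all 4 clones, out of 83066 such introns.

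The libraries came from HCT116, an established human colon cancer cell line. They formed 5 groups of 3 libraries: the wild-type line (WT) and 4 separate clones (KO-1 to KO-4), each labelled bktRNA1-/-. All groups were cells of 1 line in the same medium, with no treatment given, and the design text gives 3 independent experiments per group. Each KO group is 1 clone, so a difference between it and WT cannot be told apart from a difference between single clones and the parent line, and the labels do not describe bktRNA1 further.

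The processome is the large particle that assembles on the growing precursor of ribosomal RNA in the nucleolus. There it folds the precursor and lets it be cut, so that the RNA of the small ribosomal subunit is released. The UTP-A complex binds first, to the 5′ external spacer, and several of its subunits (the t-UTPs) are also needed for normal RNA polymerase I transcription. The UTP-B complex and the U3 snoRNP, which pairs with the precursor, follow, and UTP20 is a very long helical-repeat protein that joins later. Colon cancer lines, like other fast-growing cells, make ribosomes at a high rate.

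Reads of 2 kinds were counted for every intron: reads spliced across it (spliced reads) and reads over its exon-intron boundaries (retained reads). The retention level is the share of retained reads after each form is divided by its effective length. Spliced reads were also added up over the introns of a gene and scaled to a common library size, which gave a measure of how much spliced RNA of the gene was present. Depth, counted over introns that all 4 tables list, ran from 17287797 to 35348260 junction reads over the 15 libraries. The KO-1 libraries were the shallowest, at 17287797 to 20454252, against at least 27092050 in the others. Of 9 markers of colon epithelium 5 were measured: KRT8, KRT18, KRT19, EPCAM and CDX2. EPCAM, an epithelial adhesion protein, was lower in KO-1, KO-2 and KO-4, with log2 changes of -1.06 ± 0.09, -0.99 ± 0.09 and -0.59 ± 0.09 (SE). KRT19, an epithelial keratin, was higher in all 4 clones, at 0.24 ± 0.05, 0.50 ± 0.05, 0.46 ± 0.05 and 0.79 ± 0.05 in KO-1 to KO-4. KRT8 and KRT18 were higher in KO-3 and passed in no other clone. Of 5 markers of other cells COL1A1 alone was measured, at a mean of 159 ± 33.0 scaled reads in WT (SD, n = 3). COL1A1, a fibroblast collagen, changed by 0.65 ± 0.15 in KO-4 (adjusted p = 0.0012). Summed over the epithelial markers measured, the WT libraries held 114191 to 128754 scaled reads, those of KO-1 117452 to 126203, of KO-2 119386 to 127133, of KO-3 168933 to 176806 and of KO-4 130928 to 137540. The part of these differences in the results below was not tested.

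The promoters of the genes are shown first because the 10 genes moved together in some clones. The sequences are the 250 bases upstream of the start, from RefSeq (GRCh38.p14), written 5′ to 3′ in lower case. Capitals mark 4 motifs searched on both strands: CACGTG (E-box), CCGGAAG (ETS), GGGCGG (GC box) and CCAAT. All 10 genes matched an entry, and 3 are printed. NOL11 is chosen as the first gene of the set, UTP18 for having all 4 motifs, as UTP4 does, and UTP15 for the lowest log2 change of any member.
NOL11 (chr17:67717686-67717935, + strand): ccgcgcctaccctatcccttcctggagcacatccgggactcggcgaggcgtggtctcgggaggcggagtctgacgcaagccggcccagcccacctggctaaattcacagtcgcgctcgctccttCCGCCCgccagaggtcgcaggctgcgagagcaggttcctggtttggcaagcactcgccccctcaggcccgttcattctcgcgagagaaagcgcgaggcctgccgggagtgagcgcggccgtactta
UTP18 (chr17:51260296-51260545, + strand): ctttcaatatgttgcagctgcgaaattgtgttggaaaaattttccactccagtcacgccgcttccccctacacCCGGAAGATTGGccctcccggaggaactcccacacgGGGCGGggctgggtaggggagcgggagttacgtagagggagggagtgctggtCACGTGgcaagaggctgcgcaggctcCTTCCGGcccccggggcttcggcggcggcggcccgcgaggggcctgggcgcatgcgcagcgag
UTP15 (chr5:73565493-73565742, + strand): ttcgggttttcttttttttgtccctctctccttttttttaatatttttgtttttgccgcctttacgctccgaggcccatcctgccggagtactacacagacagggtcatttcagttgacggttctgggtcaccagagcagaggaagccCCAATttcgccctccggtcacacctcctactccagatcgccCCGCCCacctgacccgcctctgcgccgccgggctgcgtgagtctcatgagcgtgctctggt

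The GC box was found in 9 of the 10, all but WDR3, against 42.6% of 35116 promoters of the same length. In NOL11 it begins 126 bases before the start. A further motif was searched and was present in the NOL11 promoter and in no other member. It is not reported here, so the 4 are not the full set searched. CCAAT was found in UTP15, UTP18, UTP4, WDR3 and WDR75, against 32.0% of all. The ETS motif was found in UTP18, UTP4, WDR3 and WDR36, against 8.52%, and the E-box in UTP18, UTP20 and UTP4, against 6.34%. In UTP18 a CCAAT motif on the reverse strand directly follows an ETS motif. A match is a description of these letters and no measure of binding. The shares are over all promoter entries, not only those of genes measured here, and were not matched for base content. In the members G and C made up 47.6% to 78.8% of the 250 bases.

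Spliced reads of the member genes fell in KO-2 and KO-4, fell for part of them in KO-1, and fell for WDR36 alone in KO-3. In KO-1, 6 of the 10 genes were lower at an adjusted p below 0.05 and none higher, where 12.5% of all 9471 genes were lower and 13.7% higher. In KO-2 all 10 were lower and none higher, against 21.1% lower and 21.9% higher of all genes. In KO-3 the count was 1 lower and 0 higher, against 15.6% and 15%. In KO-4 it was 9 lower and 0 higher, against 24.2% and 24.6%. The median log2 change of the members was -0.49 in KO-4, -0.27 in KO-2, -0.16 in KO-1 and -0.03 in KO-3, and over all genes it was between -0.0026 and 0.0025 in each clone. The 4 comparisons share the WT libraries. In bulk RNA, fewer expressing cells and less RNA per cell cannot be told apart.

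**Figure D1:**
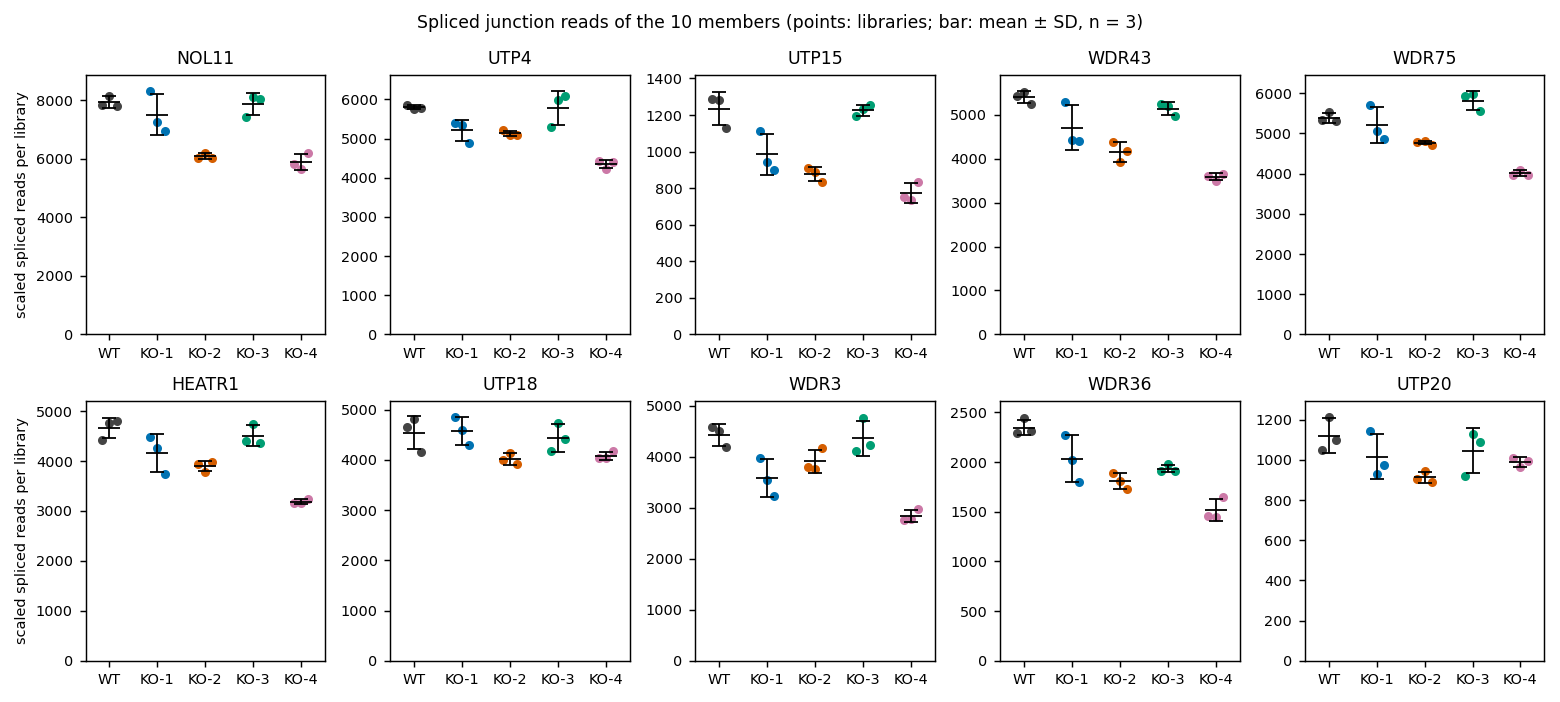
Scaled spliced reads of the 10 member genes (y axis, from 0) in each library of WT and the 4 clones (points), with the mean and SD of the 3 libraries of a group. KO-4 libraries lie below all WT libraries in 9 of the 10 panels (UTP18 is the exception), and KO-2 libraries in all 10. Of all 9471 genes, 28.5% had all KO-4 libraries below WT and 26.1% all KO-2 libraries.

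Members of UTP-A were considered first. NOL11 (chromosome 17), which binds UTP4 and is needed for early processing of the precursor, had 7820, 8155 and 7785 scaled reads in the WT libraries. Its values were 8313, 7250 and 6959 in KO-1, 6035, 6192 and 6035 in KO-2, 7426, 8089 and 8049 in KO-3, and 5802, 5640 and 6180 in KO-4. All KO-2 and KO-4 libraries were thus below all WT libraries, whereas those of KO-1 and KO-3 overlapped with WT. The log2 change was -0.38 ± 0.06 in KO-2 (SE, adjusted p = 1.2e-05, limma), and -0.43 ± 0.06 in KO-4 (adjusted p = 1.7e-06). In KO-4 this left 74.1% of the WT level. In KO-1 and KO-3 the changes were -0.08 ± 0.06 and -0.01 ± 0.06 and did not pass the test.

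UTP15, a WD-repeat t-UTP and the least abundant UTP-A member per intron, had 1289, 1283 and 1131 scaled reads in WT. The values were 1112, 945 and 898 in KO-1, 908, 888 and 833 in KO-2, 1193, 1232 and 1253 in KO-3, and 750, 733 and 834 in KO-4. Every library of KO-1, KO-2 and KO-4 was below every WT library, and the KO-3 libraries lay inside the WT range. The log2 change was -0.33 ± 0.08 in KO-1 (adjusted p = 0.0038), -0.49 ± 0.08 in KO-2 (adjusted p = 3.2e-05) and -0.68 ± 0.08 in KO-4 (adjusted p = 3.5e-07), the lowest of any member in any clone. In KO-4 62.6% of the WT level remained.

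HEATR1, the long HEAT-repeat subunit needed for transcription by RNA polymerase I, had 4420, 4768 and 4796 scaled reads in WT. It had 4482, 4268 and 3730 in KO-1, 3938, 3789 and 3971 in KO-2, 4409, 4748 and 4357 in KO-3, and 3165, 3156 and 3237 in KO-4. The KO-2 and KO-4 libraries were separate from WT, and KO-1 and KO-3 each had a library inside the WT range. Its log2 changes were -0.17 ± 0.06 in KO-1 (adjusted p = 0.038), -0.26 ± 0.06 in KO-2 (adjusted p = 0.0011) and -0.55 ± 0.06 in KO-4 (adjusted p = 8.9e-08).

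UTP4, the WD-repeat partner of NOL11, fell to a mean of 4348 ± 110 scaled reads in KO-4 from 5799 ± 57.1 in WT (SD, n = 3). WDR43, which has a WD-repeat domain too, fell to 3585 ± 83.4 from 5391 ± 137, and WDR75, another t-UTP, to 4009 ± 73.7 from 5390 ± 126. Each of the 3 had all KO-4 and all KO-2 libraries below WT. WDR75 was the only member whose KO-3 libraries all lay above WT, at 5916, 5979 and 5543 against 5343, 5533 and 5295. That change was 0.11 ± 0.05 and did not pass the test (adjusted p = 0.13).

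Among the UTP-B members, WDR3 and WDR36 fell as far as UTP-A members in KO-4, and UTP18 fell less. WDR36, a tandem WD-repeat protein, had 2295, 2440 and 2309 scaled reads in WT and 1914, 1976 and 1911 in KO-3. It had 2276, 2020 and 1802 in KO-1, 1894, 1809 and 1731 in KO-2, and 1458, 1448 and 1648 in KO-4. All 12 clone libraries were below all 3 WT libraries, and it was the only member that passed the test in all 4 clones. The log2 changes were -0.21 ± 0.07, -0.37 ± 0.07, -0.28 ± 0.07 and -0.63 ± 0.07 in KO-1 to KO-4, with adjusted p of 0.029, 0.00018, 0.0048 and 1.7e-07.

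WDR3, also built of WD repeats, fell to 2838 ± 111 in KO-4 from 4421 ± 210 in WT (SD, n = 3), a log2 change of -0.64 ± 0.07. In KO-1 its change was -0.31 ± 0.07 and in KO-2 -0.18 ± 0.07 (adjusted p = 0.0016 and 0.039). The KO-2 change did not pass without the library listed first or second in WT or in KO-2, at -0.16 to -0.15.

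UTP18, a WD-repeat subunit that recruits the nuclear exosome to the particle, had 4651, 4812 and 4165 in WT, 4843, 4597 and 4290 in KO-1, 3999, 4136 and 3914 in KO-2, 4168, 4733 and 4416 in KO-3, and 4039, 4028 and 4173 in KO-4. The KO-4 library listed last lay just inside the WT range. The changes were -0.18 ± 0.06 in KO-2 (adjusted p = 0.02) and -0.15 ± 0.06 in KO-4 (adjusted p = 0.036). The KO-4 change did not pass without the WT library listed first or second, or without the KO-4 library listed first or second, at values of -0.14 to -0.11. It did not pass on either side of the gene (5′ or 3′) taken alone. In KO-2 the change did not pass without the WT library listed first or second, or without the KO-2 library listed first or last, at -0.17 to -0.13.

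UTP20 had 1047, 1216 and 1099 scaled reads in WT, 1142, 929 and 977 in KO-1, 906, 944 and 890 in KO-2, 920, 1128 and 1091 in KO-3, and 1009, 963 and 994 in KO-4. The KO-2 and KO-4 libraries all lay below the lowest WT library. The change passed the test in KO-2, at -0.29 ± 0.08 (adjusted p = 0.007), and not in KO-4, at -0.18 ± 0.08 (adjusted p = 0.083). Without the WT library listed second the KO-2 change was -0.23, with an adjusted p of 0.0505.

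Libraries differed in how reads were spread along genes, and this moved with the groups. For 7381 genes with at least 4 introns, reads of the introns on the 5′ side of the middle intron were set against those on its 3′ side. Relative to WT, the median log2 ratio over all genes was 0.01 for KO-1, -0.09 for both KO-2 and KO-3, and -0.12 for KO-4, and it was alike in the 3 libraries of each clone. The members' median was -0.0040, -0.14, -0.18 and -0.20 in the same order. All 10 were below 0 in KO-2, KO-3 and KO-4, as were 76.5%, 78.2% and 81.3% of the 7381 genes. HEATR1 was the lowest member in each of these clones. With only the 3′ side in the fit, 5, 9, 1 and 8 members were lower in KO-1 to KO-4, against 11.4%, 19.3%, 12.4% and 22.8% of all genes. The members' median changes were then -0.16, -0.24, 0.01 and -0.47. With only the 5′ side, 3, 10, 2 (HEATR1 and WDR36) and 8 were lower, against 10.5%, 19.2%, 13.7% and 21.3%. The counts in KO-2 and KO-4 were thus near those of the whole genes on either side. The sides divide only the introns listed for all 4 clones. For UTP20 those lay between introns 38 and 61 of 61, so neither its 5′ side nor its sum holds earlier introns.

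The KO-1 count rested on single libraries. It went from 6 to 2 without the WT library listed second, to 3 without the KO-1 library listed second, and to 2 without the KO-1 library listed last. UTP15 and WDR3 passed with each of the 6 WT and KO-1 libraries left out in turn. UTP4, WDR43, HEATR1 and WDR36 each failed with at least 1 left out, and UTP4 and HEATR1 also failed with only KO-1 and WT in the fit.

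**Figure D2:**
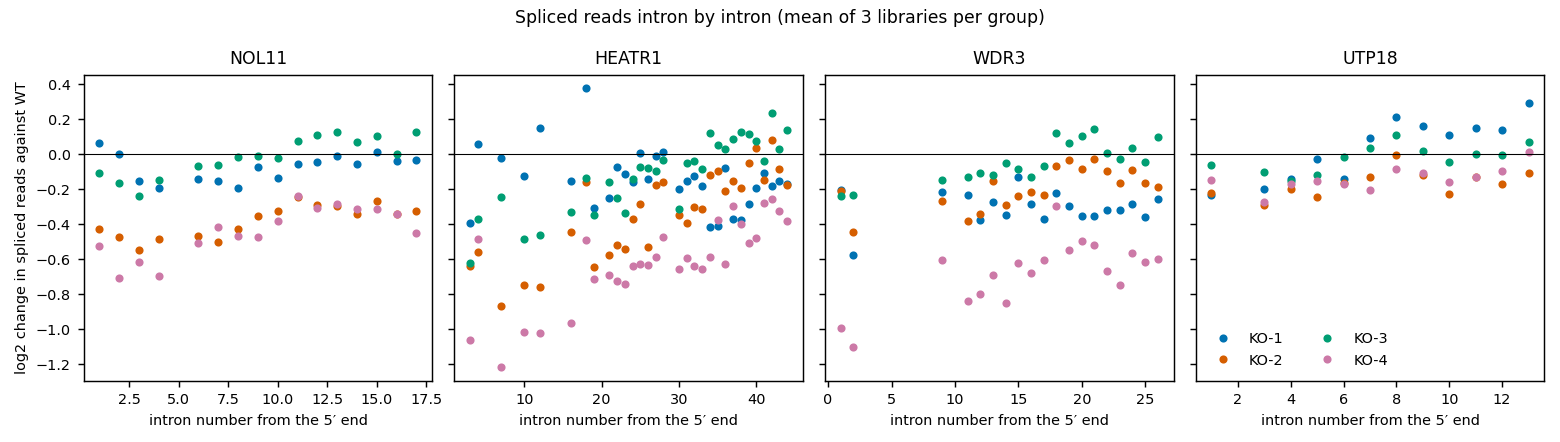
Log2 change in mean scaled spliced reads against WT (y axis) for each intron with at least 50 scaled reads in WT, by intron number (x axis), in NOL11, HEATR1, WDR3 and UTP18. KO-4 values are below 0 at every intron of NOL11, HEATR1 and WDR3, and are lowest toward the 5′ end of HEATR1, down to -1.22.

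In KO-2 and KO-4 the falls were spread over the introns of each gene. Of 173 member introns with at least 50 scaled reads in WT, 170 had fewer mean reads in KO-4, 167 in KO-2, 143 in KO-1 and 110 in KO-3. That share was not computed over all introns. Of all 9471 genes, 49.6%, 50.3%, 49.8% and 50.1% had a change below 0 in KO-4, KO-2, KO-1 and KO-3. Of the 12 introns of UTP18 with that many reads, 5 were below WT in KO-1. All 16 such introns of NOL11, all 31 of HEATR1 and all 19 of WDR3 were below WT in KO-4. In HEATR1 the KO-4 values ran from -1.22 to -0.26, and in NOL11 from -0.71 to -0.24. Introns of a gene share its RNA, so these counts are not separate measurements.

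Levels per intron put NOL11 highest in WT, at 466 ± 12.1 scaled reads per intron (SD, n = 3). WDR43 had 359 ± 9.1 and UTP18 349 ± 25.9, which overlapped within their spread, followed by UTP4 at 322 ± 3.2, WDR75 at 270 ± 6.3, WDR3 at 233 ± 11.1 and HEATR1 at 150 ± 6.8. WDR36 at 117 ± 4.0 and UTP15 at 112 ± 8.1 again overlapped, and UTP20 was lowest at 65.9 ± 5.1. These values divide the reads by the number of listed introns, which counts rarely spliced forms too, so they also carry differences in which introns were listed. Of 18 introns of UTP4, 15 had at least 50 scaled reads in WT, as did 12 of 13 of UTP18 and 10 of 11 of UTP15. All 15 of WDR43 and all 20 of WDR36 did. The order of WDR43, UTP18 and UTP4, and that of WDR36 and UTP15, is therefore no ranking of gene levels.

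**Figure D3:**
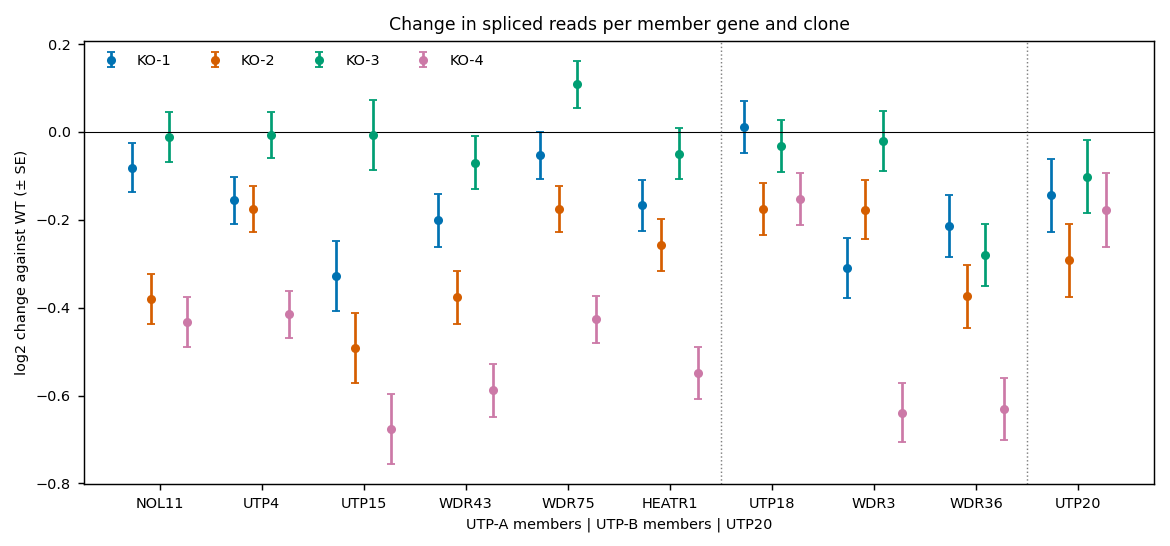
Log2 change in scaled spliced reads against WT, with its SE from limma (y axis), for each member gene (x axis, ordered by complex) and clone (colours). KO-4 values are the lowest of the 4 clones in 8 genes, and KO-3 values lie within 0.11 of 0 in all genes except WDR36.

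The clones differed among themselves. A test of any difference among the 12 clone libraries passed for 9 of the 10 members, all except UTP20, but it also passed for 75.4% of all genes, so the count is little above that of genes at large. In pairs of clones, KO-1 was higher than KO-4 in 9 members (22% of all genes), KO-3 higher than KO-4 in 8 (26.5%) and KO-2 higher than KO-4 in 6 (19.4%). KO-2 was lower than KO-3 in 6 (22.8%), KO-1 lower than KO-3 in 4 (21%) and KO-1 higher than KO-2 in 3 (18.9%). No member passed in the opposite direction in any of the 6 pairs. For NOL11, KO-2 and KO-4 differed by 0.05 ± 0.06 and did not pass (adjusted p = 0.50), while KO-3 was 0.42 ± 0.06 above KO-4.

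Other genes of the pathway were taken from lists of 58 genes, of which 56 were measured. In KO-4, 40 were lower and 1 higher, against 24.2% and 24.6% of all genes. In KO-2 the counts were 29 and 3 (21.1% and 21.9%), and in KO-1 21 and 0 (12.5% and 13.7%). In KO-3 they were 12 and 5, against 15.6% and 15%. The medians were -0.29 in KO-4, -0.18 in KO-2, -0.11 in KO-1 and -0.01 in KO-3.

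Of the 5 proteins of the U3 snoRNP all were lower in KO-4 (24.2% of all genes) and 4 in KO-2 (21.1%). Fibrillarin (FBL), the methyltransferase of box C/D snoRNPs, changed by -0.49 ± 0.05 in KO-4 (adjusted p = 1.3e-07) and -0.46 ± 0.05 in KO-2 (adjusted p = 5e-07). RRP9, the U3-specific protein, changed by -0.36 ± 0.06 in KO-4. Of the rest of UTP-B, PWP2 and TBL3 were lower in KO-4, at -0.47 ± 0.09 and -0.26 ± 0.06, and UTP6 was higher in KO-2, at 0.19 ± 0.06. In the MPP10 complex, IMP4 was lower in KO-4 at -0.54 ± 0.05, and MPHOSPH10 was higher in KO-3 at 0.23 ± 0.07.

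Among 31 other processome factors 23 were lower and 1 higher in KO-4, against 24.2% and 24.6% of all genes. NAT10, the RNA acetyltransferase, changed by -0.51 ± 0.05 and NOP14 by -0.54 ± 0.06. DHX37, the helicase that drives the late steps of the particle, was lower in all 4 clones, at -0.32 ± 0.06, -0.30 ± 0.06, -0.32 ± 0.06 and -0.27 ± 0.06 in KO-1 to KO-4. Of 15 genes of RNA polymerase I transcription 9 were lower and none higher in KO-4, against the same shares. In KO-3, 5 were lower and 3 higher, where 15.6% and 15% of all genes were. POLR1A, the largest subunit of the polymerase, changed by -0.46 ± 0.07 in KO-4, whereas UBTF, the factor that keeps ribosomal DNA open, was -0.04 ± 0.05 there and -0.26 ± 0.05 in KO-1.

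**Figure D4:**
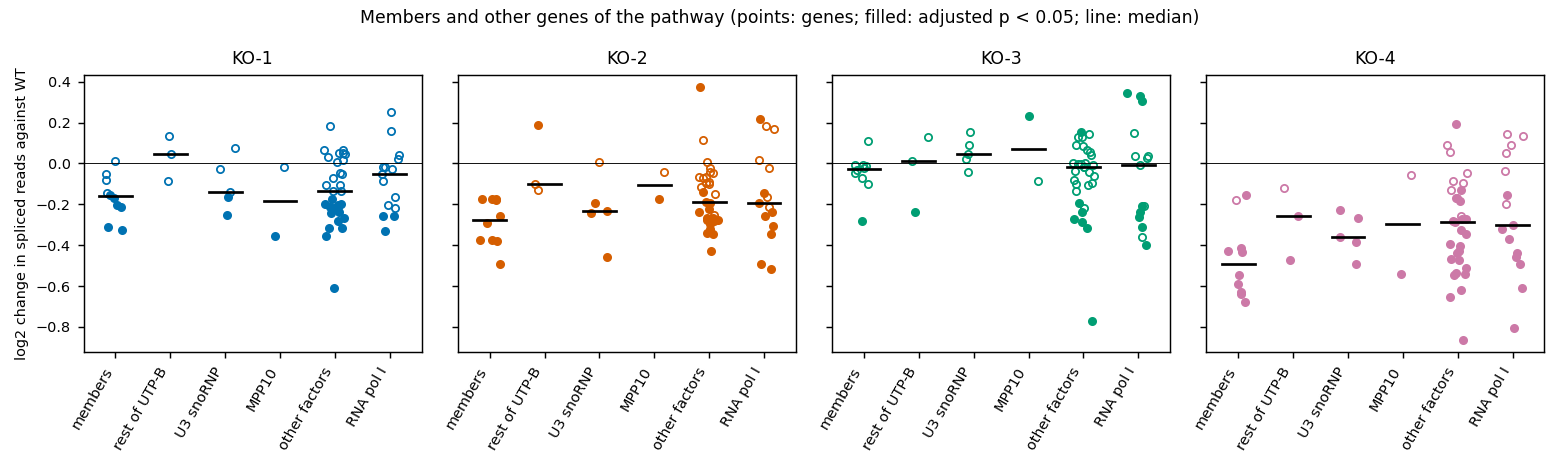
Log2 change in scaled spliced reads against WT (y axis) for the members and the 5 other lists (x axis), 1 panel per clone. Each point is a gene, filled where the adjusted p is below 0.05, and the line is the median of the list. In KO-4 the median of every list is below 0, and in KO-3 the medians lie between -0.03 and 0.07.

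Retention of member introns was mostly low, and few changes passed the test. In WT the median retention level of the 181 introns was 0.58%, against 1.27% over all introns listed for the 4 clones. A level above 10% was found in 8 of them, or 4.42%, against 20.02% of all. Of the 8, 6 had levels of 86.4% to 100%, with 0 to 57 spliced reads in the WT library listed first, and are rarely spliced forms. They are 1 intron each of NOL11 (chr17:67743587-67743924), UTP15 (chr5:73567435-73568291) and UTP18 (chr17:51285369-51288123), and 3 of UTP4 (chr16:69132690-69133511, chr16:69137978-69139824 and chr16:69139112-69139824). The NOL11 form lies at the 3′ end of the gene, where it shares its start with intron 17, which had a mean of 333 scaled spliced reads in WT. The others were UTP4 intron 4 at 10.6% and HEATR1 intron 44 at 19.3%. Intron numbers are those of GENCODE 29 transcripts. In that annotation NOL11 intron 16 holds the snoRNA SNORA38B, WDR43 introns 4, 9 and 10 hold SNORD92, SNORD53 and SNORD53B, and WDR3 introns 21 and 23 overlap exons of SPAG17 on the opposite strand. Reads of such genes inside an intron are not separated from its retained reads in these tables where they cross its ends.

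Enough reads for the test, which was set at 10 or more of each kind per library on average, were present for 26, 34, 31 and 26 member introns in KO-1 to KO-4. The model compared the odds of a read being retained (quasi-binomial with limma's moderated dispersion). No member intron passed in KO-1, KO-2 or KO-3, and 1 passed in KO-4. The share called of all introns tested was 1.47%, 1.6%, 0.713% and 1.97%. At an unadjusted p below 0.05 the counts were 5, 10, 1 and 5 member introns, against 10.8%, 11.9%, 8.25% and 13.8% of all introns tested. The median log2 odds change of the tested members was 0.11, 0.39, -0.09 and 0.05, beside 0.13, 0.10, 0.02 and 0.17 over all introns. Of the changes of members, 14 of 26, 26 of 34, 11 of 31 and 14 of 26 were above 0 in KO-1 to KO-4, against 62.0%, 58.5%, 52.3% and 64.7% of all introns. Levels mostly under 1% leave few retained reads, so smaller changes could not be detected at this depth.

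The intron called was HEATR1 intron 44, the last intron of the gene (chr1:236550991-236551998, hg38, minus strand, 1008 bases). HEATR1 and LGALS8, the gene of galectin-8, run toward each other, and annotated exons of LGALS8 on the plus strand overlap introns 43 and 44 of HEATR1. The library kit marks strand, but whether strand was used in the counting is not given in the sources used here, so reads of LGALS8 and retained reads of HEATR1 may not be told apart. The ends of the introns are shown because the counted reads cross them, with the first and last dinucleotides in capitals where they were read, in the direction of HEATR1 and from GENCODE transcript sequence.
HEATR1 intron 44, first 20 bases: GTaattcccaaactattccc
HEATR1 intron 44, last 40 bases: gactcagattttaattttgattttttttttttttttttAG
HEATR1 intron 43, last 40 bases: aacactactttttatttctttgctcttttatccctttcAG

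The retention level of HEATR1 intron 44 was 22.8%, 16.9% and 18.04% in WT, 22.9%, 27.1% and 35.6% in KO-1, 27.3%, 25.3% and 24.5% in KO-2, 22.3%, 15.8% and 18.3% in KO-3, and 32.0%, 31.1% and 22.5% in KO-4. The libraries of KO-2 all lay above those of WT. In KO-1 the lowest library, at 22.86%, was level with the highest of WT, at 22.84%. In KO-4 1 library, at 22.5%, lay inside the WT range. The log2 odds change was 0.77 ± 0.19 in KO-4 (adjusted p = 0.013), 0.71 ± 0.21 in KO-1 (adjusted p = 0.072), 0.54 ± 0.19 in KO-2 (adjusted p = 0.17) and -0.03 ± 0.20 in KO-3. Without the KO-4 library listed first, the KO-4 library listed second or the WT library listed second, the adjusted p in KO-4 was 0.18, 0.15 and 0.085. With limma on log2 odds it was 0.42, and after centring on the median intron it was 0.11.

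The means on both sides of this ratio differed between KO-4 and WT. Scaled retained reads over intron 44 were 138 ± 30.9 in KO-4 and 107 ± 19.6 in WT (SD, n = 3), while spliced reads across it were 172 ± 4.4 and 223 ± 5.0. In KO-1 retained reads were 157 ± 26.4. LGALS8 had 1001, 875 and 940 scaled spliced reads in WT and 1094, 1161 and 1249 in KO-1, a rise of 0.32 ± 0.08 (log2, adjusted p = 0.0042). In KO-4 it had 991, 865 and 852, a change of -0.06 ± 0.08 that did not pass. In KO-2 it had 853, 810 and 900, a change of -0.13 ± 0.08 that did not pass either. Scaled retained reads over HEATR1 intron 44 were 137 ± 11.2 in KO-2. The part of LGALS8 in the retained reads of HEATR1 was not tested. The level of intron 43 was 7.58% ± 0.61 in WT, 13.6% ± 4.2 in KO-1 and 11.8% ± 3.6 in KO-4 (SD, n = 3), and neither change passed. The other 29 introns of HEATR1 had a median level of 0.36% in WT and none above 6.59%.

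**Figure D5:**
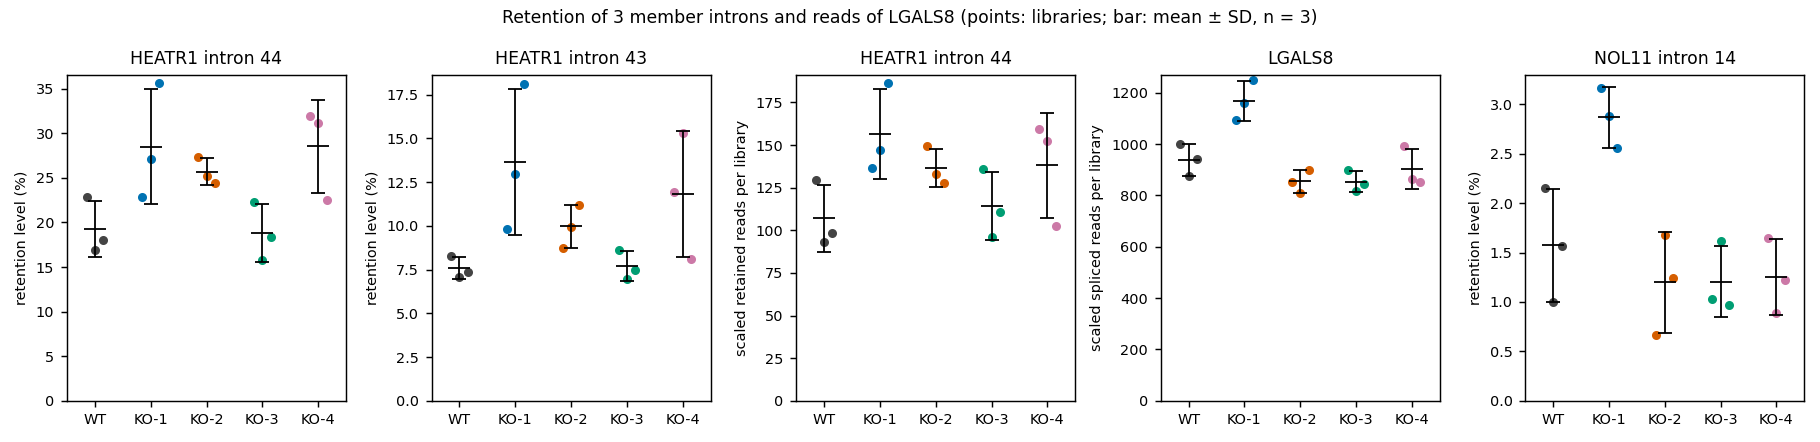
From left to right, the retention level in percent of HEATR1 introns 44 and 43, scaled retained reads of HEATR1 intron 44, scaled spliced reads of LGALS8, and the retention level in percent of NOL11 intron 14, in each library (points) with the mean and SD of 3 libraries per group. In KO-1 all libraries lie above WT for LGALS8 and for NOL11 intron 14, and in KO-3 the groups overlap in every panel.

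Retained and spliced reads were also pooled over the introns of a gene that were listed for all 4 clones. No member then passed in any clone, where 0.755%, 1%, 0.384% and 1.51% of 8079 genes did. The pools of NOL11, UTP4, UTP15 and UTP18 include the rarely spliced forms. In the WT library listed first the pooled level was 6.41% in UTP4 and 5.70% in UTP18, beside median intron levels of 0.46% and 0.47% in WT. The smallest adjusted p were 0.067 for HEATR1 in KO-4, at a log2 odds change of 0.66 ± 0.16, and 0.069 for WDR75 in KO-2, at 0.52 ± 0.12. Without introns 43 and 44 the HEATR1 change in KO-4 was -0.14 ± 0.21. In the same form it was -0.05 ± 0.24 in KO-1 and -0.06 ± 0.22 in KO-2, where it had been 0.54 ± 0.18 and 0.42 ± 0.13 with them. Each of the values without introns 43 and 44 was smaller than its SE. These introns held most of the pooled retained reads of HEATR1. In the WT library listed first, 83 of 260 remained without them. The part of LGALS8 in these changes was not tested.

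NOL11 intron 14 (chr17:67738356-67738931, plus strand, 576 bases) carries the sequence of a U12-type intron. Such introns are rare and are removed by the minor spliceosome, which reads a longer, more constant sequence at the 5′ end and a branch site close to the 3′ end. The first 8 bases are in capitals, as is the best match to the branch site in the last 40 bases.
NOL11 intron 14, first 20 bases: GTATCCTTtgacatagagca
NOL11 intron 14, last 40 bases: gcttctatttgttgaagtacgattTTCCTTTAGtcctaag
By a rule that allowed 1 mismatch in the first 8 bases and 2 at the branch site, it was the only U12-type intron among 9 member introns with both ends read. Over all introns with both ends read, 0.483% fitted the rule. The other member introns could not be read at both ends and were not classed.

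The retention level of NOL11 intron 14 was 2.15%, 1.00% and 1.57% in WT and 3.17%, 2.88% and 2.55% in KO-1. It was 0.669%, 1.68% and 1.24% in KO-2, 1.04%, 1.62% and 0.965% in KO-3, and 1.65%, 0.889% and 1.22% in KO-4. KO-1 lay above WT in all libraries, and the other clones overlapped with WT. The KO-1 change was 0.95 ± 0.39 in log2 odds and did not pass the test (adjusted p = 0.32), with 13 to 22 retained reads per KO-1 library.

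NOL11 intron 17, the last intron of the gene (chr17:67743587-67743742, plus strand), had levels of 2.62%, 2.39% and 2.40% in WT and 6.04%, 4.56% and 4.26% in KO-4. All KO-4 libraries lay above WT, and the change of 1.05 ± 0.35 log2 odds had an adjusted p of 0.09. In the authors' deposited table its adjusted p was 0.02. The authors' tables of the 4 clones held 3 other member introns below 0.05. They were HEATR1 intron 43 in KO-1 at 0.022, HEATR1 intron 44 in KO-4 at 0.012 and WDR75 intron 7 in KO-2 at 0.036. The share of all introns below 0.05 by the authors' values was not computed, so this count has no background beside it.

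Among the 4 clones, 4 member introns differed in retention: HEATR1 intron 44, NOL11 intron 14, NOL11 intron 17 and UTP4 intron 4. Of the 21223 introns tested in this way 6.41% did. Only introns with enough reads of both kinds were tested, so the 4 are not out of all 181 member introns listed for the 4 clones. Leaving out the libraries listed first, second or last in every clone left 1, 1 and 2. UTP4 intron 4 (chr16:69137886-69139824, plus strand), which holds an annotated exon of UTP4 itself, had mean levels of 14.3% ± 2.4 in KO-1 and 12.6% ± 0.11 in KO-2, whereas KO-3 and KO-4 had 9.50% ± 1.5 and 9.56% ± 1.2, against 10.6% ± 1.6 in WT (SD, n = 3).

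Of the other pathway genes, introns of NOP56 passed in 3 clones. NOP56, a core protein of box C/D snoRNPs and a host of snoRNAs, had an intron (chr20:2656215-2656400, plus strand) with a level of 16.3% ± 4.4 in WT, 30.0% ± 3.3 in KO-4, 25.8% ± 4.8 in KO-2, 22.2% ± 1.7 in KO-1 and 16.2% ± 2.7 in KO-3 (SD, n = 3). The log2 odds changes were 0.59, 0.84, 0.02 and 1.18 in KO-1 to KO-4, with adjusted p of 0.0017, 9.1e-07, 0.98 and 4e-15. Introns of the RNA polymerase I subunit gene POLR1G, named CD3EAP in the tables, passed in KO-2 and KO-4, and of WDR46 in KO-4. In all, 1, 4, 0 and 5 of 137, 168, 155 and 166 tested introns of these lists were called in KO-1 to KO-4, all of them higher. Of all introns tested, 1.47%, 1.6%, 0.713% and 1.97% were called, so these counts were near the background.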

How the data were processed

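Polyadenylated RNA was sequenced from 15 libraries. The submitters' processing notes name cutadapt 2.0, STAR 2.7.1a and the build hg38. How junctions were counted, and the authors' test, is not given in the sources used here. Deposited tables hold, per the file headers, junction counts as lists of 3 libraries in 1 cell (unit other), inclusion levels as fractions, and the authors' p-values and FDR values per intron. Libraries are named by their order in a list, since it holds no replicate number. Here retention was recomputed from counts and lengths, tested with a quasi-binomial model (dispersion moderated by limma 3.58.1, R 4.3.3) and Benjamini-Hochberg adjustment (threshold 0.05), for introns averaging 10 or more reads of each kind. Genes averaging 50 or more spliced reads were scaled (median ratio) and fitted with limma on log2(scaled reads + 0.5), all 5 groups in 1 fit. The planned quasi-likelihood count test was not run, although the lists could be unpacked, and limma and a quasi-Poisson model took its place. The plan was to name introns past the threshold in a clone, else the one with the smallest median p per gene. It was followed for HEATR1, NOL11 and UTP4. The picks for UTP15, WDR43, WDR75, UTP18, WDR3, WDR36 and UTP20 passed in no clone and are not described. Other introns in the text, such as NOL11 intron 14, HEATR1 intron 43 and WDR75 intron 7, were not picked by this rule. Members and lists were chosen with earlier results of these data known. The pairs of clones, pooled retention, the split into a 5′ and a 3′ side, upper-quartile scaling and a quasi-Poisson model were added after the data were seen. The tests were also run on simulated data, with a spread set by fixed rules and not estimated from these libraries. The outcome is not given here, so that run does not show how the tests perform on these data. P-values rest on the spread between libraries within groups, pooled over all groups of a fit and moderated over genes or introns. They do not measure the spread between separate clones of 1 genotype.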

Additional observations from a re-analysis of the deposited data

Results flagged for a closer look

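Results are listed here because their change against WT differed among the 4 clones, by a test of that difference over the clone libraries. For spliced reads, limma gave adjusted p of 6.7e-07 for NOL11, 5.3e-06 for UTP4, 1.2e-06 for UTP15, 6.2e-07 for WDR43, 8.1e-08 for WDR75, 9e-07 for HEATR1, 0.016 for UTP18, 3.4e-07 for WDR3 and 9.4e-05 for WDR36. In the first 6 and in WDR3 and WDR36, KO-4 was the lowest clone. UTP18 was lowest in KO-2, at -0.18 ± 0.06 (log2 change against WT), and highest in KO-1, at 0.01 ± 0.06. Genes with such a difference were 75.4% of all those tested. For retention, the adjusted p were 0.0024 for HEATR1 intron 44, 0.045 for NOL11 intron 14, 0.005 for NOL11 intron 17 and 0.034 for UTP4 intron 4. NOL11 intron 17 had a mean level of 4.95% ± 0.95 in KO-4 and 1.56% ± 0.71 in KO-1 (SD, n = 3), and NOL11 intron 14 was highest in KO-1, at 2.87% ± 0.31.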

How the results depend on the processing

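The counts of lower member genes in KO-2 and KO-4 stayed within 1.5 times of 10 and 9 under all alternatives run, at 7 to 10 and 8 to 10, and none was higher. In KO-1 the count of 6 ran from 2 to 7 when single libraries were left out, and was 3 on the 5′ side of the introns. In KO-3 the count of 1 became 2 on the 5′ side. Directions near 0 turned. In KO-1, UTP18 went to -0.0033 with scaling by library total and -0.11 on the 5′ side, WDR75 to 0.021 on the 5′ side, and UTP18 ran from -0.049 to 0.058 without single libraries. In KO-3 the 3′ side gave 0.050 for NOL11, 0.023 for UTP4, 0.080 for UTP15, 0.011 for HEATR1 and 0.013 for WDR3. Without single libraries KO-3 values ran from -0.034 to 0.027 for NOL11, -0.045 to 0.057 for UTP4, -0.069 to 0.025 for UTP15, -0.093 to 0.012 for UTP18 and -0.084 to 0.020 for WDR3. The cause was not tested. The count of called member introns in KO-1 became 1 with no filter on reads and 1 by the authors' deposited adjusted p, in KO-2 1 by the latter, and in KO-4 it went from 1 to 0 with limma on log2 odds, to 0 after centring on the median intron and to 2 by the authors' values. Leaving out single libraries gave 0 to 1 in KO-1 and 0 to 1 in KO-4, and 1 to 2 introns that differed among the clones in place of 4. No paired analysis was possible because the lists of 3 libraries carry no replicate numbers. The planned count tests, their scalings and the interaction fit were not run, although the lists could be unpacked into counts per library. Of 221 introns at most 34 had enough reads to be tested in a clone.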
